A study of Mus musculus with 17 samples.

Results

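Ide, Rnpep, Adap1, Hbb-bh1 and Dlgap2 are 5 of the 21849 genes counted in single germinal centre (GC) B cells of this study. They were chosen by their response to anti-DEC-OVA, an antibody to the receptor DEC-205 that carries ovalbumin (OVA) into B cells. All 5 were taken as strongly changed at 72 h after the antibody in treated against untreated mice. For Ide and Rnpep this held at 48 h too. The differences at 48 and 72 h, and the levels from which they were chosen, are therefore given as descriptions without a test. In the smaller experiment described below, treated and untreated mice overlapped at 72 h for Hbb-bh1 and Dlgap2. The comparison of cells by CDK2 activity used mice outside the choice of the genes and was tested. The comparison by cell-cycle phase was tested too. It split the cells of mice at 0 h, whose summed levels were in view for the choice, so it is not fully independent.

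Ide encodes insulin-degrading enzyme, a zinc metallopeptidase that cleaves short peptides. Rnpep encodes aminopeptidase B, a zinc aminopeptidase that removes basic residues from the ends of peptides. Adap1 encodes a GTPase-activating protein for Arf6 that binds phosphoinositides. Hbb-bh1 encodes an embryonic beta-like globin, which in mice is known from primitive erythroid cells, and Dlgap2 encodes a postsynaptic scaffold protein known from neurons. In the GC, B cells cycle between a dark zone, where they divide and mutate their antibody genes, and a light zone, where helper T cells select them. A strong T cell signal, here forced through DEC-205, drives several divisions in the dark zone without a return to the light zone.

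The hosts were wild-type CD45.1 mice, 5 to 12 weeks old and of both sexes, primed with OVA and given CD45.2 B cells that carry the NP-specific B1-8hi heavy chain. Of the transferred cells 5% expressed DEC-205 and a doxycycline-sensitive mCherry division tracker (Col1a1 tetO-H2B-mCherry, driven by Vav-tTA) and 95% were Ly75-/-, since Ly75 encodes DEC-205. All were immunized with NP-OVA, and treated mice received 5 µg of anti-DEC-OVA at 7 days post-immunization (dpi). For division tracking by mCherry, the study's methods also list doxycycline, begun after the antibody and continued in the drinking water. Its part in differences from 7 dpi was not tested. In the time course, lymph node GC B cells were taken at 7 dpi (0 h), and from treated and untreated mice at 9 dpi (48 h) and 10 dpi (72 h). The labels call these GC B cells, and the study's legends describe the cells of the time course as DEC-205+. It was run as 2 experiments, a larger one with 25 mice (6 at 0 h, 4 untreated and 6 treated at 48 h, 5 untreated and 4 treated at 72 h) and a smaller one with 14 mice (3, 2, 3, 3 and 3). A separate experiment held 3 mice at 7 dpi, 3 untreated at 10 dpi and 3 treated at 10 dpi, whose DEC-205+ cells were sorted for low mCherry, so that treatment and sort cannot be told apart there. In the fourth, GC B cells with the CDK2 activity reporter DHB-tdTomato (Rosa26), with or without H2B-GFP, were taken from 7 mice. By the study's methods all of these mice were treated with anti-DEC-OVA and collected at 72 h. Their cells were sorted by imaging into CDK2hi (reporter in the cytoplasm) and CDK2low (reporter in the nucleus) cells. Each of these populations was a pool of its own, so that sort and pool cannot be told apart there. Mice were told apart by hashtag antibodies, and the unique molecular identifiers (UMIs) of each gene were summed per mouse and divided by the mouse's total, as CPM (UMIs of the gene scaled to equal totals).

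The summed libraries of the time course held between 1984426 and 13373185 UMIs per mouse, and those of the separate experiment between 349784 and 4728692. Bcl6, a transcription factor that marks GC B cells, was present in every group, at 177 to 432 CPM per mouse. Treated mice at 48 h had fewer cells in G1, 15.3% to 24.2% against 44.0% to 56.9% in untreated mice, and more UMIs per cell. At 72 h the G1 shares overlapped, at 49.2% to 56.6% in treated and 39.1% to 56.1% in untreated mice of the larger experiment. In the smaller one they were 33.6% to 46.3% against 40.2% to 47.2%. The B1-8hi pairing of heavy and light chain was found in 32.2% to 77.7% of a mouse's cells in the time course. At 48 h the shares were 70.5% to 77.7% in treated and 62.3% to 67.2% in untreated mice of the larger experiment. In the smaller one they were 53.1% to 58.0% against 34.7% to 38.8%, so neither experiment overlapped at 48 h. At 72 h the shares overlapped in both, and the part of the pairing in the differences with treatment was not tested. In the separate experiment it was found in 0.817% to 3.46% in treated mice and 8.06% to 13.8% in untreated mice at 10 dpi, without overlap. At 7 dpi it was found in 5.60% to 9.69%. Only cells with a single productive heavy and a single productive light chain could be called paired. Cells without the pairing thus include cells with no or several chains found, and the share of those is not given here. Barcodes shared between pools numbered 122 among 46212 cells.

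In the GRCm39 annotation, Ide lies at chr19:37245688-37340729, Rnpep at chr1:135190438-135211839, Adap1 at chr5:139249678-139311572 and Hbb-bh1 at chr7:103490844-103492371, all on the minus strand, and Dlgap2 at chr8:14145850-14903418 on the plus strand. The counted gene Get4 overlaps the end of Adap1 on the other strand, so the level of Adap1 is uncertain to the extent that reads of the overlap were shared. Annotated genes that were not counted overlap all 5 genes. On the same strand these are Rpl10-ps6 in Ide and Gm3160 and Gm54940 in Dlgap2. On the other strand they include Gm26642 at Rnpep and Gm74438 at Hbb-bh1. The part of their reads in the levels was not tested. The counts are summed over each gene and do not show which start site was used. The RefSeq promoter table (GRCm38.p6) matched 3 of the 5 genes, and the 250 bases before the listed start are shown because Ide and Adap1 were higher, and Rnpep lower, in the same treated mice. Capitals mark matches on either strand to any of 6 motifs. They are the GC box with the letters GGGCGG, the E box with CACGTG, the CCAAT box, the TATA box with TATAAA, the site of ETS factors with CCGGAAG and that of STAT factors with TTCNNNGAA, and matches may overlap.
Rnpep, chr1:135284085-135284334, minus strand: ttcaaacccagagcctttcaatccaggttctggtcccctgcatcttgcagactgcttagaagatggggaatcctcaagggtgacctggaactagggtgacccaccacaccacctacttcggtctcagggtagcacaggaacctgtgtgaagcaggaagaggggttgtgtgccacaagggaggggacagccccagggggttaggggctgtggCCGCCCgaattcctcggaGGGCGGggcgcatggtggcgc
Adap1, chr5:139325465-139325714, minus strand: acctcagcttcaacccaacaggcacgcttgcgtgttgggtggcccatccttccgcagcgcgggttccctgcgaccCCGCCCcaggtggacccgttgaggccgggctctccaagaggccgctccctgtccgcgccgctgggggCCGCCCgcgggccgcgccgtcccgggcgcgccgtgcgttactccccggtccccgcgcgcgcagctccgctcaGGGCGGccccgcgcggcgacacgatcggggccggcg
Ide, chr19:37334545-37334794, minus strand: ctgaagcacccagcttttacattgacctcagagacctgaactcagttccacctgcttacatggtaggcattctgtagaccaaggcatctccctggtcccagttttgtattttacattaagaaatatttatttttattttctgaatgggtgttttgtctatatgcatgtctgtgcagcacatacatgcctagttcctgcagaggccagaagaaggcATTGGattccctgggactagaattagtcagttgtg
The Rnpep window held 2 matches to GGGCGG and the Adap1 window 3, a motif found in 32.7% of the 32851 windows of the table. The Ide window held 1 match to CCAAT, found in 33.8% of windows, and none to GGGCGG. None of the 3 windows held the letters of the E box, the TATA box, the ETS site or the STAT site, which are in 6.02%, 12.4%, 6.91% and 7.02% of windows. GC content was 60.4% before Rnpep, 77.6% before Adap1 and 42.8% before Ide, against a median of 52.4% over the table. The window before Ide held 0 CpG, that before Rnpep 7 and that before Adap1 39. No sequence feature searched was common to the 3 windows.

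Rnpep had the largest difference of the 5 genes at 72 h and was lower in treated mice. At 0 h it stood at 23.9, 25.3, 26.7, 27.2, 28.3 and 29.4 CPM in the larger experiment and at 19.0, 21.7 and 23.2 CPM in the smaller one. At 48 h the untreated mice held 22.1 to 28.0 CPM over both experiments (median 24.1, n = 6) and the treated mice 6.13 to 11.5 CPM (median 9.80, n = 9). At 72 h the untreated mice of the larger experiment were at 22.4, 23.7, 24.6, 24.7 and 26.2 CPM and the treated ones at 5.67, 6.04, 7.37 and 10.5 CPM. In the smaller experiment, untreated mice at 72 h were at 23.6, 26.0 and 26.5 CPM and treated ones at 7.48, 9.65 and 10.9 CPM. Every treated mouse at both times was below every untreated mouse and every mouse at 0 h. The log2 difference was -1.32 ± 0.11 (SE) at 48 h and -1.59 ± 0.13 at 72 h, a level 3.01-fold lower at 72 h. Treated mice at 72 h gave between 17 and 61 Rnpep UMIs each, so counting error is part of their spread.

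Ide differed in the opposite direction in the same mice. It stood at 7.56 to 15.9 CPM at 0 h (median 11.3, n = 9) and at 7.49 to 15.4 CPM in untreated mice at 48 h (median 10.3, n = 6). Treated mice at 48 h held 19.0, 19.4, 20.03, 22.7, 23.8 and 24.97 CPM in the larger experiment and 31.4, 32.6 and 36.3 CPM in the smaller one. All 9 treated mice at 48 h were above every mouse at 0 h and every untreated mouse. At 72 h untreated mice held 6.32, 7.99, 8.74, 10.4 and 11.1 CPM in the larger experiment and treated mice 13.9, 13.98, 18.7 and 19.0 CPM. In the smaller experiment, the values at 72 h were 9.52, 9.66 and 10.03 CPM in untreated and 16.3, 24.2 and 26.1 CPM in treated mice. The groups at 72 h did not overlap, although 2 treated mice at 13.9 and 13.98 CPM were below the highest mouse at 0 h. The log2 difference was 1.35 ± 0.12 at 48 h and 1.02 ± 0.14 at 72 h, with a mean of 25.6 ± 6.34 CPM (SD, n = 9) in treated mice at 48 h and 18.9 ± 4.76 CPM (SD, n = 7) at 72 h.

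Adap1 was higher in treated mice mainly at 72 h. In the larger experiment, untreated mice at 72 h stood at 5.83, 8.13, 13.3, 15.3 and 16.4 CPM and treated mice at 23.0, 25.3, 26.5 and 27.1 CPM. In the smaller experiment they stood at 7.60, 9.52 and 10.6 CPM and at 19.0, 20.8 and 21.1 CPM. The groups at 72 h did not overlap in either experiment. At 48 h the larger experiment had 16.3 to 21.6 CPM in untreated and 19.4 to 25.2 CPM in treated mice, which overlapped, while the smaller one had 10.8 and 13.2 against 15.3, 16.6 and 18.5 CPM. The log2 difference was 0.43 ± 0.11 at 48 h and 1.08 ± 0.13 at 72 h (2.12-fold). Relative to 0 h, the mean of treated mice at 72 h was 1.501-fold in the larger and 1.65-fold in the smaller experiment, and that of untreated mice 0.695-fold and 0.751-fold. The difference at 72 h thus held both a higher level in treated and a lower level in untreated mice than at 0 h.

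Hbb-bh1 differed in 1 of the 2 experiments. In the larger one, untreated mice at 72 h stood at 9.33, 13.1, 21.4, 25.005 and 27.3 CPM and treated mice at 41.3, 47.9, 51.9 and 57.7 CPM. In the smaller one, untreated mice stood at 9.71, 11.1 and 14.1 CPM and treated mice at 8.80, 14.7 and 16.8 CPM. The groups did not overlap in the larger experiment and overlapped in the smaller one. The log2 difference of 1.05 ± 0.19 over both was 1.36 ± 0.17 in the larger experiment alone and 0.19 ± 0.35 in the smaller one alone. At 0 h the larger experiment already held 29.5 to 45.4 CPM and the smaller one 10.6 to 27.2 CPM. At 48 h the treated and untreated mice overlapped in both experiments, with a log2 difference of 0.03 ± 0.17 whose sign changed with the scaling (-0.05 with total UMIs in place of TMM).

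Dlgap2 was 1.78-fold higher in treated mice at 72 h, with a wide spread between mice and experiments. In the larger experiment, untreated mice stood at 8.11, 10.5, 17.4, 22.3 and 29.9 CPM and treated mice at 33.8, 37.9, 38.3 and 40.0 CPM, without overlap. In the smaller one, untreated mice stood at 38.6, 42.1 and 47.4 CPM and treated mice at 45.8, 68.6 and 83.6 CPM, so that 1 treated mouse lay within the untreated range. All mice of the smaller experiment at 0 h (45.3, 46.0 and 56.3 CPM) were above all of the larger one (9.91 to 21.4 CPM), a difference between experiments larger than the difference with treatment. The log2 difference was 0.83 ± 0.19 at 72 h and -0.26 ± 0.20 at 48 h. At 48 h treated mice overlapped untreated ones, at 11.8 to 31.8 CPM against 13.02 to 41.2 CPM.

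**Figure D1:**
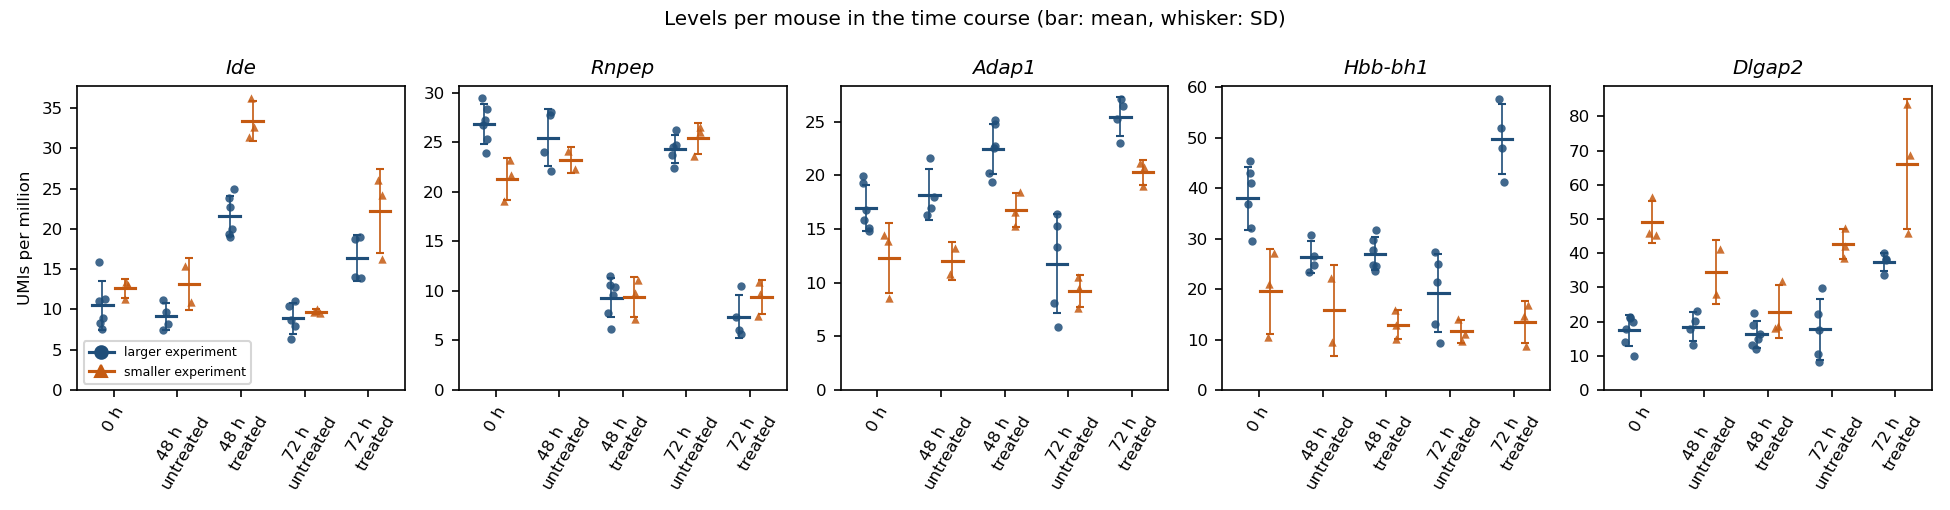
Level of each gene in CPM (vertical axis) in each mouse of the larger (circles) and smaller (triangles) experiment at 0, 48 and 72 h, with bars at the group mean and whiskers for the SD. Rnpep in treated mice lies between 5.67 and 11.5 CPM, below every other mouse, Ide in treated mice lies above its untreated range at both times, and Hbb-bh1 separates treated from untreated mice at 72 h only in the larger experiment.

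Ide and Rnpep thus held apart in both experiments at 48 h and at 72 h. Adap1 did so at 72 h, while at 48 h its groups overlapped in the larger experiment. Hbb-bh1 and Dlgap2 overlapped at 48 h, and at 72 h they held apart in the larger experiment and overlapped in the smaller one. Relative to 0 h, untreated Hbb-bh1 at 72 h was 0.506-fold in the larger and 0.594-fold in the smaller experiment, and treated Hbb-bh1 1.31-fold and 0.686-fold. For Dlgap2 the treated mean was 2.15-fold and 1.34-fold and the untreated mean 1.02-fold and 0.868-fold of that at 0 h. At 72 h, 3 of the 5 genes (Ide, Rnpep and Adap1) did not overlap between treated and untreated mice in the same direction in both experiments, against 2.09% of the 10220 genes tested. At 48 h this held for 2 of the 5 (Ide and Rnpep), against 22.8% of genes. Since the genes were selected on these contrasts, nothing is read from those counts. Over all genes the edgeR quasi-likelihood test called 8.55% at 72 h and 47.4% at 48 h at an adjusted p below 0.05.

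The separate experiment gave another picture for Rnpep. Untreated mice at 10 dpi stood at 20.01, 25.9 and 35.8 CPM and treated mice, sorted as DEC-205+ cells with low mCherry, at 48.6, 49.0 and 50.9 CPM. Treated mice were above untreated mice there, where in the time course they were below, and the log2 difference was 0.67 ± 0.15. The mice at 7 dpi (22.8, 26.1 and 27.0 CPM) were close to those at 0 h in the time course. The mice with the CDK2 reporter, which were also treated and taken at 72 h, held 46.7 to 58.1 CPM over both sorts. Treated mice at 72 h thus lay between 5.67 and 10.9 CPM in the time course and at 46.7 CPM or more in the other 2 experiments. These were prepared and sorted separately, and the CDK2 sort used cells of another reporter genotype. Among the few cells of the separate experiment with the B1-8hi pairing, 20 Rnpep UMIs in treated and 22 in untreated mice gave 43.0 CPM (95% Poisson interval 26.3 to 66.4, counting error only) and 37.5 CPM (23.5 to 56.7). Among the other cells, which include those with no or several chains found, the values were 49.7 CPM (45.9 to 53.8) and 30.4 CPM (24.6 to 37.2). Without the untreated mouse at 35.8 CPM the log2 difference was 1.02. The part of the sort and of the cells without the pairing in the direction of Rnpep was not tested. Host cells (CD45.1) and transferred cells (CD45.2) were not told apart beyond the pairing. The part of this origin in the levels of Rnpep was not tested either.

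Of the other genes of the separate experiment, Adap1, Dlgap2 and Hbb-bh1 differed in the direction of the time course when all cells were taken. In the few cells with the B1-8hi pairing, fitted without a filter on low counts, Hbb-bh1 turned to -1.42 ± 1.36, from 1 UMI in treated and 4 in untreated mice, and Adap1 was at 2.97 ± 0.88, from 15 and 2 UMIs. Ide stood at 4.79, 4.81 and 8.58 CPM in untreated and 5.24, 5.51 and 10.997 CPM in treated mice, from 3 to 52 UMIs a mouse, with a log2 difference of 0.51 ± 0.43 that was 0.045 without the treated mouse at 10.997 CPM. The other 2 treated mice were below the untreated mean. Adap1 stood at 0, 8.31 and 8.63 CPM in untreated and 18.3, 20.9 and 21.2 CPM in treated mice, where the 0 came from the shallowest library of 349784 UMIs. Dlgap2 stood at 11.5, 13.99 and 14.3 against 27.1, 39.8 and 41.4 CPM, and Hbb-bh1 at 10.5, 12.2 and 14.3 against 17.1, 17.5 and 22.4 CPM. For these 3 genes treated and untreated mice did not overlap. The mice at 7 dpi held 15.3 to 24.3 CPM of Adap1, which took in all treated mice, 24.2 to 36.8 CPM of Dlgap2, below 2 of the treated mice, and 27.6 to 39.5 CPM of Hbb-bh1, above all treated mice. The treated mean relative to 7 dpi was 1.05-fold for Adap1, 1.12-fold for Dlgap2 and 0.567-fold for Hbb-bh1. Groups of 3 mice did not overlap for 4 of the 5 genes, Rnpep in the opposite direction to the time course, against 17.1% of the 9078 genes tested. The choice of the genes covered this experiment too, so nothing is read from that count.

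**Figure D2:**
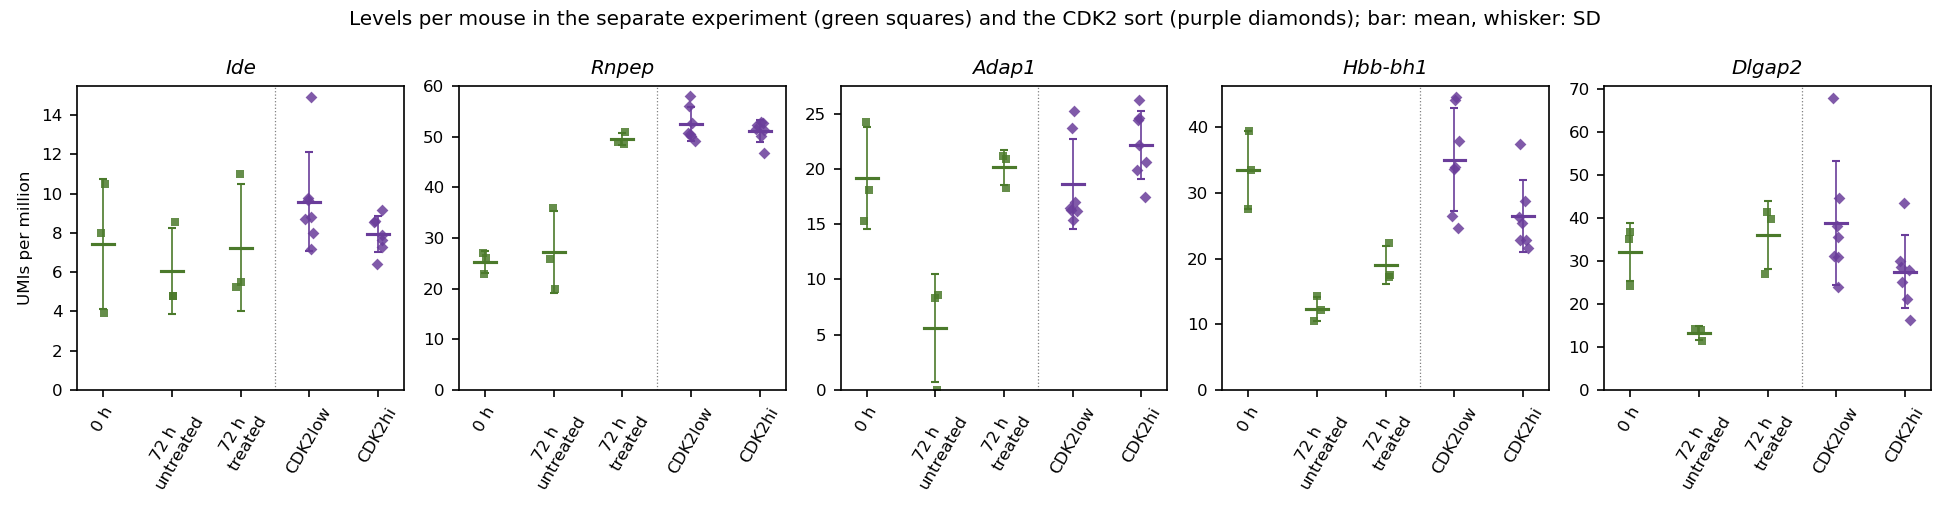
Level of each gene in CPM (vertical axis) in each mouse of the separate experiment (squares, left of the dotted line) and of the CDK2 sort (diamonds, right), with bars at the mean and whiskers for the SD. Rnpep is higher in the 3 treated mice (48.6 to 50.9 CPM) than in the 3 untreated ones, and Adap1 in the treated mice (18.3 to 21.2 CPM) lies within its range at 7 dpi (15.3 to 24.3 CPM).

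**Figure D3:**
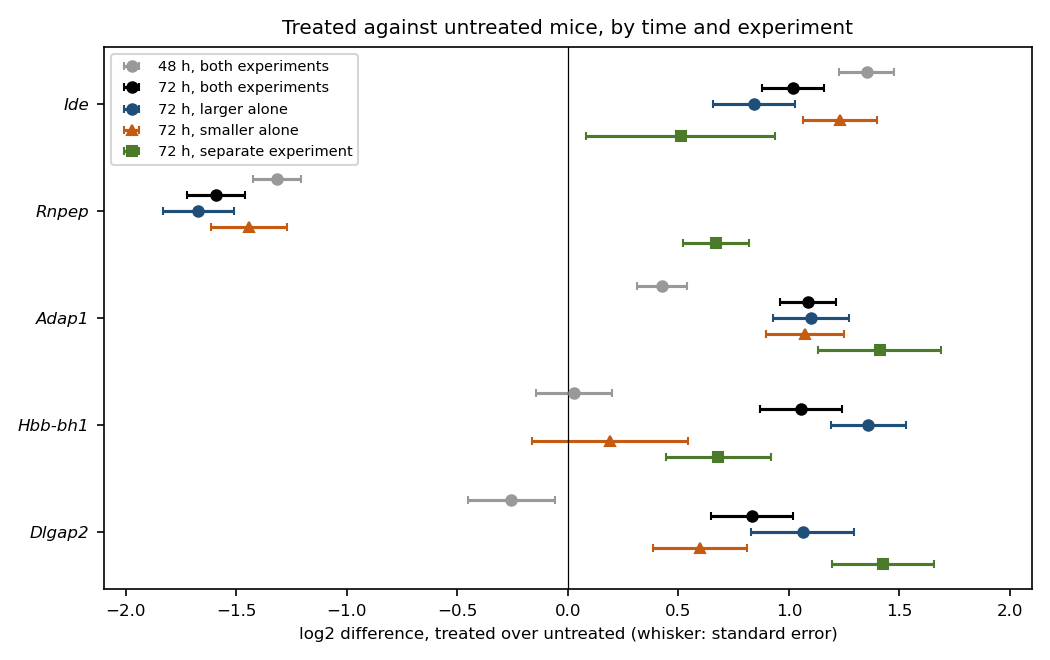
Log2 difference of treated over untreated mice (horizontal axis) with its standard error for each gene at 48 h, at 72 h, at 72 h in each experiment of the time course alone, and in the separate experiment. Rnpep lies left of 0 in the time course and right of 0 in the separate experiment, and Hbb-bh1 lies at 1.36 in the larger and 0.19 in the smaller experiment at 72 h.

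Ly75, the gene of the receptor that anti-DEC-OVA binds, was higher in treated mice at 72 h in both experiments. It stood at 32.0 to 47.6 CPM in untreated and 61.5 to 71.1 CPM in treated mice of the larger experiment, and at 59.0 to 81.4 and 105 to 139 CPM in the smaller one (edgeR log2 difference 0.79 ± 0.11, adjusted p = 1.3e-06). At 48 h the experiments differed in direction, with 52.6 to 60.98 CPM in treated and 35.8 to 46.6 CPM in untreated mice of the larger one and 54.7 to 66.9 against 68.9 to 73.1 CPM in the smaller one (0.30 ± 0.10 over both, edgeR adjusted p = 0.016). In the separate experiment it stood at 11.4 to 28.8 CPM in untreated and 41.0 to 54.3 CPM in treated mice. Cells with at least 1 Ly75 UMI made up 35.1% to 42.5% of the cells of treated and 18.9% to 31.3% of those of untreated mice at 72 h. Rnpep in treated mice at 72 h was 8.09 ± 3.08 CPM (SD, n = 7) in cells with a Ly75 UMI and 8.19 ± 2.94 CPM in cells without one. In untreated mice these values were 28.0 ± 2.17 and 23.1 ± 2.05 CPM (SD, n = 8). Ide was 20.8 ± 6.36 and 16.9 ± 4.22 CPM with and without a Ly75 UMI in treated mice and 11.1 ± 2.09 and 8.26 ± 1.69 CPM in untreated mice. A cell without a Ly75 UMI may still express the gene at this depth, and the share of cells with a UMI from free RNA was not measured, so nothing is read from this split.

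Red cells express globins, so erythroid markers are given beside Hbb-bh1. Hba-a1 and Slc4a1 had 0 UMIs in every group of the time course and of the separate experiment. The summed level of 9 of 10 erythroid markers found in the files was 11.3 to 14.6 CPM in treated and 4.81 to 8.32 CPM in untreated mice of the larger experiment at 72 h, and 3.52 to 8.22 against 2.67 to 6.25 CPM in the smaller one. Hbb-bt, an adult beta globin 29.1 kb from Hbb-bh1, and Hbb-bs, 15.1 kb from it, are 2 of these markers. In treated mice of the larger experiment at 72 h their means were 10.3 and 2.13 CPM. The median sum was 12.3 CPM, so these 2 genes made up most of it. Hbb-bt stood at 8.80 to 11.2 CPM in treated and 2.11 to 6.91 CPM in untreated mice of the larger experiment at 72 h. In the smaller experiment the groups overlapped, at 3.52 to 6.01 CPM in treated and 1.64 to 4.56 CPM in untreated mice. Hbb-bt rose in the fit over both experiments (log2 difference 0.87 ± 0.21, adjusted p = 0.0066 by edgeR). Of the 12 other globins on the list, 2 passed the filter on low counts, Hbb-bt and Hbb-bs, and Hbb-bs did not pass the test at 72 h (0.46 ± 0.36, adjusted p = 0.51). In the separate experiment Hbb-bt stood at 24.9 to 34.3 CPM in untreated and 21.7 to 28.3 CPM in treated mice. T cell markers summed to at most 34.3 CPM and myeloid markers to at most 32.9 CPM in any mouse of the time course. At 48 h the T cell sums of treated and untreated mice did not overlap, at 1.17 to 5.44 against 7.41 to 10.2 CPM in the larger and 1.86 to 5.15 against 11.4 to 12.5 CPM in the smaller experiment. At 72 h the myeloid sums were 14.4 to 32.9 in treated against 7.79 to 25.5 CPM in untreated mice of the larger experiment. In the smaller one they were 6.60 to 8.41 against 10.6 to 17.1 CPM and did not overlap. In the separate experiment they were 6.34 to 7.86 in treated and 8.58 to 65.1 CPM in untreated mice at 10 dpi, without overlap.

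Markers of other B lineage cells moved with some of the groups. The 6 markers of naive or memory B cells summed to 139 to 201 CPM in treated and 335 to 426 CPM in untreated mice of the larger experiment at 48 h, and to 98.7 to 120 against 247 to 281 CPM in the smaller one. At 72 h the sums were 253 to 328 against 338 to 452 CPM in the larger experiment and 198 to 275 against 229 to 351 CPM in the smaller one, where they overlapped. The GC B cell markers at 48 h summed to 4568 to 4873 CPM in treated and 5291 to 5858 CPM in untreated mice of the larger experiment, and to 3773 to 4130 against 4700 to 4897 CPM in the smaller one. In the separate experiment, where Rnpep was higher in treated mice, the 7 plasma cell markers summed to 1515 to 3214 CPM in treated and 1018 to 1114 CPM in untreated mice. In the time course at 72 h the plasma cell sums overlapped, at 1197 to 1376 against 1231 to 1794 CPM in the larger and 936 to 1497 against 1183 to 1295 CPM in the smaller experiment. These sums do not show single markers. Prdm1, which is among the 7, was at a log2 difference of -3.22 at 72 h over both experiments (average log2 CPM 2.04). The rest are not given singly. The part of these cells in the differences of the 5 genes was not tested.

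The comparison of CDK2hi with CDK2low cells of the same treated mice was independent of how the genes were chosen. CDK2hi cells are those in cycle and CDK2low cells those in a state like G0. The study kept cells with a dark-zone expression profile for its comparison of the sorts. It reported mostly nuclear reporter in light-zone cells of untreated GCs. Here all sorted cells were summed, so zone is mixed with CDK2 activity, and its part was not tested. Of the 10120 genes tested, 75.1% were called, so a call of a single gene is not particular. Adap1 was higher in CDK2hi cells, at 22.2 ± 3.08 CPM against 18.6 ± 4.05 CPM (SD, n = 7), in 6 of 7 mice, with a log2 difference of 0.40 ± 0.07 (edgeR quasi-likelihood test with the mouse as a block, adjusted p = 6.62e-06). Dlgap2 was lower in CDK2hi cells in 7 of 7 mice, at 27.5 ± 8.54 against 38.9 ± 14.3 CPM (log2 difference -0.34 ± 0.06, adjusted p = 8.72e-06). Hbb-bh1 was lower in 7 of 7 mice, at 26.5 ± 5.44 against 35.1 ± 7.83 CPM (-0.19 ± 0.06, adjusted p = 0.0049). Ide did not pass the test (-0.02 ± 0.09, 95% interval -0.20 to 0.16, adjusted p = 0.85), although it passed with total UMIs as the scale, at -0.22 (adjusted p = 0.034). Rnpep changed sign with the scaling, from 0.16 ± 0.04 with TMM (adjusted p = 0.0012) to -0.04 with total UMIs (adjusted p = 0.38), and was higher in 2 of 7 mice in CPM. The naive or memory B cell markers summed to 99.7 to 181 CPM in CDK2hi and 331 to 535 CPM in CDK2low cells. The GC B cell markers summed to 3935 to 4289 against 5112 to 5678 CPM and the myeloid markers to 4.23 to 6.60 against 8.005 to 24.02 CPM, also with no overlap. The part of these cells in the differences between the sorts was not tested. The median of all genes stood at -0.02 with TMM and -0.22 with total UMIs, and the values here are relative to the former.

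Cells at 0 h in S or G2/M were compared with cells in G1 of the same 9 mice. The phase calls rest on the expression of cycle genes, none of them among the 5. Of the 8594 genes tested, 65.4% were called. Rnpep was higher in cycling cells in 9 of 9 mice, at 26.6 ± 4.10 against 21.3 ± 3.45 CPM (SD, n = 9; edgeR with the mouse as a block, log2 difference 0.41 ± 0.10, adjusted p = 0.00059). Adap1 was higher in 8 of 9 mice (0.48 ± 0.15, adjusted p = 0.0039). Dlgap2 was lower in cycling cells in 9 of 9 mice, at 23.8 ± 14.5 against 38.8 ± 25.5 CPM (-0.70 ± 0.10, adjusted p = 1.38e-07). Hbb-bh1 was lower in 8 of 9 mice (-0.24 ± 0.09, adjusted p = 0.026). That call was lost with DESeq2 (adjusted p = 0.092), with no filter on low counts (adjusted p = 0.082 by edgeR) and without the block (adjusted p = 0.44 by edgeR), and held with total UMIs (adjusted p = 0.0052 by edgeR). Adap1 was lost with DESeq2 (adjusted p = 0.054), and Dlgap2 without the block (adjusted p = 0.125 by edgeR). Ide did not pass the test (-0.17 ± 0.16, 95% interval -0.49 to 0.14, adjusted p = 0.35). The part of the cell cycle in the differences with treatment was not tested.

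**Figure D4:**
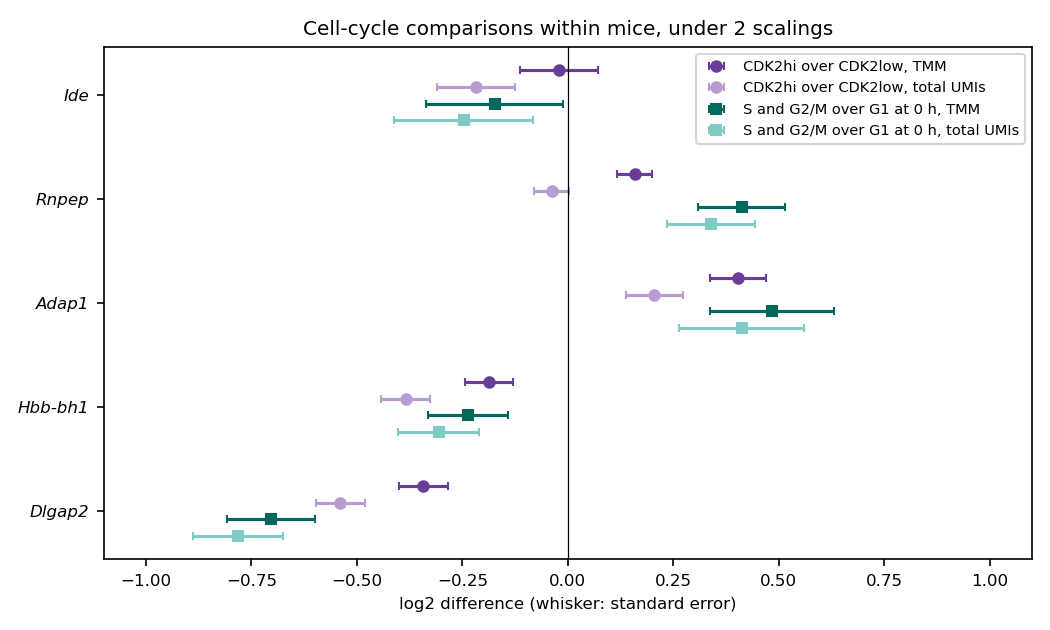
Log2 difference (horizontal axis) with its standard error between CDK2hi and CDK2low cells of 7 mice and between cells in S or G2/M and in G1 of 9 mice at 0 h, scaled by TMM or by total UMIs. Adap1 lies right of 0 and Dlgap2 and Hbb-bh1 left of 0 under both scalings, and Rnpep changes side between the scalings in the CDK2 sort.

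Genes related to the 5 by family or pathway were followed from lists. Over all lists 4 of 67 tested genes passed at 72 h (5.97%, against 8.55% of all genes) and 33 of 67 at 48 h (49.3%, against 47.4%), shares near those of all genes, so the members named next are values and not results about their families. At 72 h none of the 6 other M16 zinc peptidases, the family of Ide, passed the test, nor did any of the 6 tested M1 aminopeptidases other than Rnpep, with median log2 differences of 0.04 and -0.05. Of 18 other Arf GTPase-activating proteins 1 rose at 72 h, Asap1 (0.24 ± 0.06, adjusted p = 0.0057). Of 15 Arf GTPases and their exchange factors 1 rose, the exchange factor Cyth4 (0.23 ± 0.07, adjusted p = 0.040). None of the 9 tested genes of the Dlgap family and its partners other than Dlgap2 passed. Of 11 enzymes of intracellular peptide degradation 1 rose, the prolyl oligopeptidase Prep (0.27 ± 0.07, adjusted p = 0.0064). The median over all genes tested was -0.0044 at 72 h and 0.01 at 48 h.

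At 48 h more of them passed. Of the M16 peptidases 4 of 6 rose (Pitrm1, Pmpcb, Uqcrc1 and Uqcrc2, which act in mitochondria), by 0.24 to 0.41 on the log2 scale. Of the M1 aminopeptidases Lta4h, which also hydrolyses leukotriene A4, rose (0.40 ± 0.06, adjusted p = 7.73e-07), and Lnpep and Aopep fell by 0.20 and 0.17. Of the peptide-degrading enzymes 5 of 11 rose (Thop1, Prep, Tpp2, Blmh and Lap3), by 0.18 to 0.53, and Cndp2 fell by 0.13. Of the Arf GTPase-activating proteins 6 of 18 fell and 1 rose, and of the Arf GTPases and exchange factors 7 of 15 fell and 1 rose, with the cytohesins Cyth1 at -0.35 and Cyth4 at -0.42. Of the Dlgap family and partners 4 of 9 fell, among them Dlg1 (-0.25) and, from few UMIs, Shank1 (-1.69 ± 0.31), and Dlgap5, a spindle protein that peaks in mitosis, rose (0.38 ± 0.07, adjusted p = 2.27e-05).

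**Figure D5:**
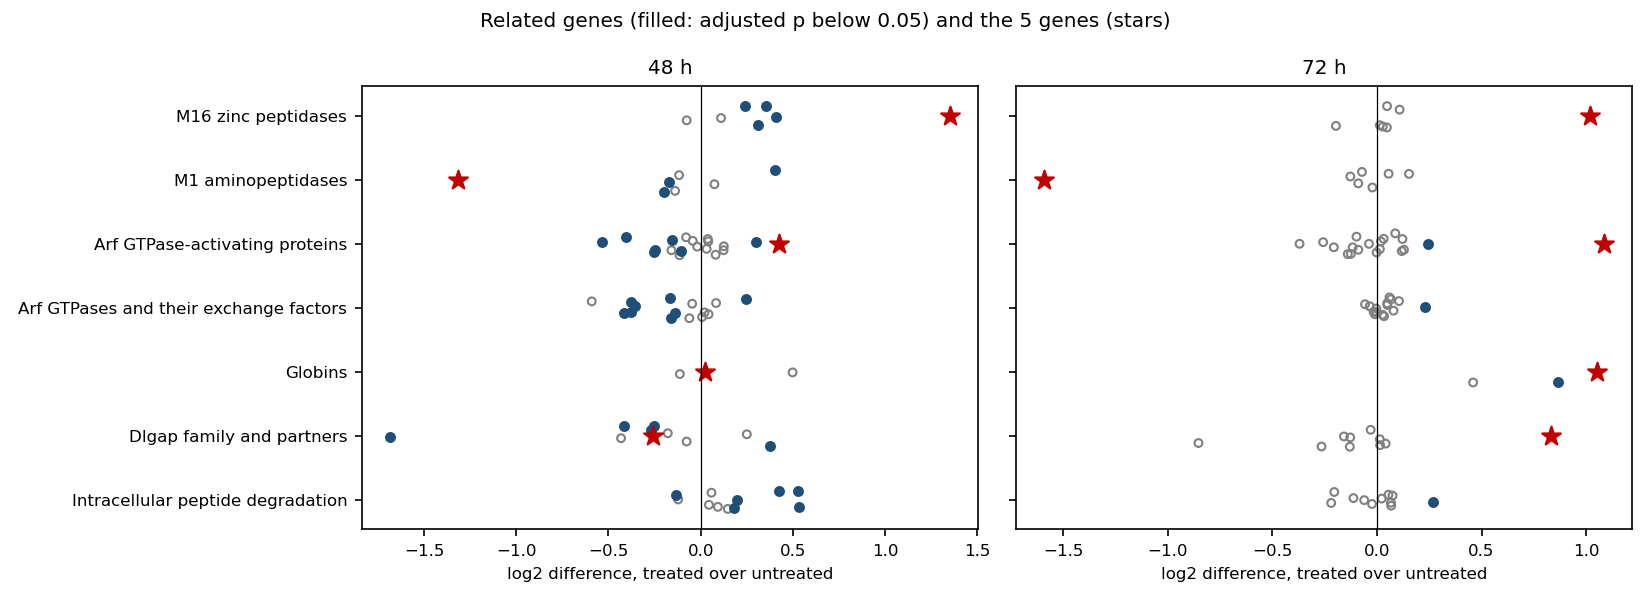
Log2 difference of treated over untreated mice (horizontal axis) at 48 h and 72 h for genes related to the 5 by family or pathway (circles, filled where the adjusted p was below 0.05), with the 5 genes as stars in the row of their own family. The stars were chosen by their values in these contrasts and the circles were not, so only the circles are to be compared with each other. Of the 67 circles 4 are filled at 72 h and 33 at 48 h.

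Genes near the 5 on the chromosome were followed as well. Over all genes tested, 8.55% were called at 72 h and 47.4% at 48 h. Of 8 tested genes within 500 kb of Ide (distances between the lower coordinates), 2 rose at 72 h and also at 48 h, when 3 rose and 2 fell in all. They were Btaf1, a regulator of TATA-binding protein (0.78 ± 0.05 at 72 h, adjusted p = 7.46e-15, and 0.65 ± 0.05 at 48 h), and Fgfbp3 (1.70 ± 0.35, adjusted p = 0.001, from few UMIs). Btaf1 lies 342 kb and Fgfbp3 351 kb from Ide, while Marchf5, between them and Ide, did not pass at 72 h (-0.03 ± 0.07, adjusted p = 0.88). Of the 8 genes near Rnpep 1 fell at 72 h, Ube2t (-0.44 ± 0.08, adjusted p = 0.00058), and the nearest, Timm17a, did not pass (0.07 ± 0.05), while 3 rose at 48 h. None of the 8 genes near Adap1 and none of the 6 near Dlgap2 passed at 72 h, while 2 and 3 of them rose at 48 h. Get4, which overlaps Adap1, was at 0.01 ± 0.06 at 72 h and rose at 48 h (0.37 ± 0.06, edgeR adjusted p = 2.12e-06), when Adap1 was at 0.43 ± 0.11. Of the 6 near Hbb-bh1, Hbb-bt rose and Trim34a and Trim12a fell at 72 h, and 4 fell at 48 h.

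Over the 10 means of the groups of both experiments, which share their libraries, the log2 levels of Rnpep and Ide had a Pearson r of -0.85 and those of Adap1 and Rnpep of -0.75. Dlgap2 and Rnpep had -0.20, and Hbb-bh1 and Ide -0.18. Adap1 had 0.63 with Hbb-bh1 and 0.53 with Ide, and Hbb-bh1 had -0.38 with Dlgap2. The remaining pairs of the 5 lay between -0.17 and 0.16. The genes most like Rnpep were Rgs18 (r = 0.97), Pttg1 (0.96) and Dpp4 (0.95). Most like Ide were Prep, Ndufb9 and Atpif1 (0.93 to 0.94), and most like Adap1 were Erg28, Pcyt2 and Mvk (0.92 to 0.95). Mvk belongs to the mevalonate pathway and Erg28 to sterol synthesis. Most like Hbb-bh1 were Ciao3, Commd8 and Bad (0.96 to 0.97) and most like Dlgap2 were Zfp62, Pik3ap1 and Cmya5 (0.97 to 0.98). The difference between the experiments was not removed before, so it is part of r. Dlgap2 and Hbb-bh1 already differed between the experiments at 0 h. The values of r are given as a description.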

How the data were processed

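Single-cell UMI counts per gene and hashtag, deposited by the authors as raw counts from CellRanger on mm39, were used together with the authors' list of hashtags per mouse. The UMIs of the deposited immunoglobulin contigs, also counts, served to find cells with the B1-8hi pairing. The file headers name Cell Ranger 7.1.0 for the separate experiment and 8.0.1 for the other pools, while the submitters' processing notes name 6.0.1, with Seurat 5.1.0. The part of the version in differences between experiments was not tested. Strand handling in counting is not given in the sources used here.

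Hashtags with at least 1000 UMIs in a pool were called with HTODemux in Seurat 5.3.0 (quantile 0.99), which left out cells with hashtags of more than 1 mouse. Doublets within a mouse were not searched for. A cell was kept if it had 200 or more genes and a mitochondrial share below 10%, and its UMIs were added to those of its mouse, the replicate. This left 13625, 10073 and 10681 cells in the larger, smaller and separate experiments and 11833 in the CDK2 sort. The mitochondrial limit removed 3114 of 13187 assigned cells in the smaller and 350 of 13976 in the larger experiment. Without filters on cells, Hbb-bh1 was at 1.03 and Dlgap2 at 0.84 (log2) at 72 h. Sums were fitted over all genes with edgeR 4.0.16 in R 4.3.3 (filterByExpr, TMM, quasi-likelihood test, Benjamini-Hochberg adjustment) and a term for the experiment or, within mice, for the mouse, since both populations came from the same animal. The SE is the log2 difference over the square root of its F statistic. The fit was also run on simulated counts with the same spread for all genes and no difference between experiments. These data are less uniform, so nothing is read from that run. Of 9 mice listed for the CDK2 sort, 7 entered the fit.

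The members and all lists were chosen with earlier results of these data known. The genes named are the 5, Ly75, single markers of cell types, called genes of the lists, tested genes within 500 kb and the 3 most similar genes. The rule also held the genes next in order of size at 72 h, left out because that order is what the choice used. The split by Ly75 UMI, the scaling by total UMIs and the splits by pairing in the separate experiment and the CDK2 sort were chosen after seeing the data. Alternatives were DESeq2 1.42.0, other filters, hashtag rules, cells and designs, and leaving out mice. Transcripts of the heavy-chain locus and a few other genes are not reported here, and a pool with hashtags and contigs but no gene counts in the files used here was not used. Poisson intervals are exact, cover 95% and cover counting error only.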

Additional observations from a re-analysis of the deposited data

Results flagged for a closer look

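Rnpep was flagged because every treated mouse at 72 h was below the untreated mean in both experiments of the time course and every treated mouse of the separate experiment was above the untreated mean of that experiment. The log2 difference was -1.59 in the time course and 0.67 in the separate experiment, and the difference between them was not tested. Treated cells were sorted by mCherry in the separate experiment, which was a pool of its own with 1414 to 1992 UMIs per cell as the median of a mouse.

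Ide in the CDK2low cells of 1 mouse, at 14.9 CPM from 69 UMIs, stood apart from the other 6 mice at 7.18 to 9.78 CPM by Dixon's criterion. This was 1 flag in 35 groups, where chance flags about 1 in 20.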

How the results depend on the processing

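Ide, Rnpep, Adap1 and Dlgap2 in the time course kept their direction and moved by less than the spread between mice under the 10 alternatives run at each time, which included either experiment alone, only B1-8hi-paired cells and DESeq2. Dlgap2 at 48 h, at -0.26, still ranged from -0.51 in the smaller experiment alone to -0.033 in paired cells only. Hbb-bh1 at 72 h was 0.19 in the smaller experiment alone, and at 48 h it changed sign with DESeq2 (-0.021), in the smaller experiment alone (-0.19) and with total UMIs (-0.047). Genes called at 72 h numbered 217 without a term for the experiment and 22 in the smaller experiment alone, and at 48 h 2680 and 2149. Related genes called at 72 h numbered 1 without that term, 7 in the larger and 0 in the smaller experiment alone, and at 48 h 21 without the term and 19 in the smaller experiment alone. With total UMIs the share of higher genes among those called fell from 55.4% to 38.0% at 48 h and from 48.6% to 29.3% in the CDK2 sort.

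In the separate experiment, leaving out 1 mouse gave 0.58 to 1.02 for Rnpep, the highest without the second untreated mouse. For Ide it gave 0.045 to 0.70, the lowest without the first treated mouse. Only B1-8hi-paired cells, with 126 cells in treated mice and fitted with no filter on low counts, so that both choices changed together, gave 0.15 for Rnpep, 2.97 for Adap1 and -1.42 for Hbb-bh1.

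In the CDK2 sort, leaving out 1 mouse gave -0.075 to 0.037 for Ide, positive without mouse 6 (0.037) or mouse 7 (0.012). Total UMIs gave -0.22 for Ide (edgeR adjusted p = 0.034) and -0.039 for Rnpep. Over the 14 alternatives Adap1 ranged from 0.20 to 0.49, Hbb-bh1 from -0.38 to -0.14 and Dlgap2 from -0.54 to -0.31. CDK2hi and CDK2low cells, and phases, were paired by mouse. Without that block, Hbb-bh1 (-0.20, adjusted p = 0.19) and Dlgap2 (-0.35, adjusted p = 0.12) no longer passed in the CDK2 sort, nor did Hbb-bh1 (-0.25) and Dlgap2 (-0.64) between phases. Between phases, DESeq2 gave 0.44 for Adap1 (adjusted p = 0.054) and -0.24 for Hbb-bh1, and no filter on low counts gave -0.20 for Hbb-bh1, none of which passed. The causes were not tested. No paired analysis was possible for treated against untreated mice because they are different animals. The planned comparison of B1-8hi-paired with other-paired cells at 72 h was not run, since too few mice had 20 other-paired cells. Low counts limit Rnpep in treated mice and Ide in the separate experiment.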
